A study of Macaca mulatta with 2 samples.

Results

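The insulin-like growth factor (IGF) system was described in the optic nerve of the rhesus macaque from 10 genes, taken by symbol from the 16684 genes of the deposited table. The members were the ligands *IGF1* and *IGF2*, the receptors *IGF1R* and *IGF2R*, and the binding proteins *IGFBP2* to *IGFBP7*. All 10 were listed, and 8 were above 0 in both libraries. In both nerves the transcripts were mostly those of binding proteins, with *IGFBP6* and *IGFBP5* far ahead of the rest. The ligands and receptors lay between 0 (*IGF2R* in Rep1) and 120 TPM (*IGF2* in Rep2). On the mean, *IGF2* stood above the binding proteins *IGFBP7* and *IGFBP3*. Binding proteins made up 97.0% of the summed TPM of the members in Rep1 and 98.0% in Rep2.

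The study sequenced bulk RNA of 2 wild-type, untreated optic nerves, collected after death, as a single condition with no control group. The methods name 1 adult male as the source, whereas the series' design text speaks of separate macaques, so the libraries are replicates whose independence is not known. Levels are given as TPM (the length-corrected share of a library's reads taken by a gene), which lets genes be set beside each other. With 2 libraries no exact two-sided sign test can reach a p below 0.5, and levels and their spread are therefore given without a test.

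IGF1 and IGF2 are small secreted hormones related to insulin, and both signal through the tyrosine kinase receptor encoded by *IGF1R*. The receptor encoded by *IGF2R* has no kinase, takes IGF2 into the cell for breakdown and also sorts lysosomal enzymes. The binding proteins hold the ligands outside the cell and either store them or keep them from the receptor, and proteases release the ligand again. In the central nervous system IGF1 is known for promoting the survival of oligodendrocytes and myelination.

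The libraries differed in depth and content. In Rep1 a single read carried as much TPM as 17.2 reads in Rep2, and 6425 genes were listed at 0 in Rep1 against 2082 in Rep2. Markers of the labelled tissue were present in both. The summed TPM of 8 oligodendrocyte markers was 46022 in Rep1 and 212406 in Rep2, and that of 7 astrocyte markers was 1098 and 7321, with none of these markers at 0. The 8 photoreceptor markers summed to 3833 (Rep1) and 7.89 TPM (Rep2), and 3 erythrocyte markers to 4537 and 1097 TPM. Photoreceptor transcripts, which the nerve itself should lack, were thus mainly those of Rep1. In bulk RNA, fewer cells of a type and less RNA per cell cannot be told apart.

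The ligand genes lie on chromosome 11 (*IGF1*, 102171555 to 102254490, minus strand) and chromosome 14 (*IGF2*, 2192527 to 2219265, minus strand) of Mmul_10. Their coding sequence is shown for the stretch of 21 codons that encodes the start of the insulin-like domain, because it shows how alike the ligands are in the part that makes them relatives of insulin. Both RefSeq stretches lie on the minus strand, in coding sequence of exon 2, at chr11:102249506-102249568 and chr14:2195705-2195767. Capitals mark the bases that differ between the genes.
IGF1: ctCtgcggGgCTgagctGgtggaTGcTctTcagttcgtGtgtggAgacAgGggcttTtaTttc
IGF2: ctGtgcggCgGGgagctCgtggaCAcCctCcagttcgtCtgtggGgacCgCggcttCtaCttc
The stretches were identical at 48 of 63 bases (76.2%) and encoded another residue at 2 of the 21 codons.

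*IGF1* stood at 14.3 (Rep1) and 23.0 TPM (Rep2), which gave 18.6 ± 6.14 TPM (SD, n = 2) and percentile 62.6 among the 14693 genes that either library detected. *IGF2* stood at 13.3 (Rep1) and 120 TPM (Rep2), with a mean of 66.4 ± 75.2 TPM (SD, n = 2) at percentile 84.1. *IGF1* thus differed 1.61-fold between the libraries, whereas *IGF2* was 9.02-fold higher in Rep2. Within a library, where no scaling between libraries enters, the ratio of *IGF2* to *IGF1* was 0.928 in Rep1 and 5.21 in Rep2, so the order of the ligands was not the same in both. The difference between the ligands on the mean of log2(TPM + 1) was 1.12, or 0.715 times its SD. The *IGF2* value of Rep1 rested on at least 1 read and that of *IGF1* on at least 11, against at least 155 and 304 in Rep2. These read numbers are the smallest whole numbers that give the ratio of a gene's values and are lower bounds.

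*IGF1R*, on chromosome 7 from 77827465 to 78139764 (plus strand), encodes the signalling receptor. It was at 19.0 (Rep1) and 13.0 TPM (Rep2), a mean of 16.0 ± 4.26 TPM (SD, n = 2) at percentile 59.8, and was the single member with the higher value in Rep1. *IGF2R*, on chromosome 4 from 10488719 to 10622044 (minus strand), was listed at 0 in Rep1 but reached 45.4 TPM in Rep2. Of the 200 genes nearest to *IGF2R* in Rep2 level, 5.0% were also listed at 0 in Rep1. The annotation places an antisense RNA over *IGF1R* and a pseudogene on the same strand over *IGF2R*, but transcripts of both receptors shared no window of 50 bases with another annotated gene. In Rep2, *IGF2R* was 3.51-fold above *IGF1R*, and in Rep1 *IGF1R* alone was detected. A value of 0 in the shallower library does not show that the transcript was missing. The insulin receptor gene *INSR*, whose product pairs with that of *IGF1R* in hybrid receptors, was at 6.05 (Rep1) and 35.8 TPM (Rep2). The ratio of *INSR* to *IGF1R* was 0.319 in Rep1 and 2.76 in Rep2, so the more abundant of these kinase receptors also differed between the libraries.

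**Figure D1:**
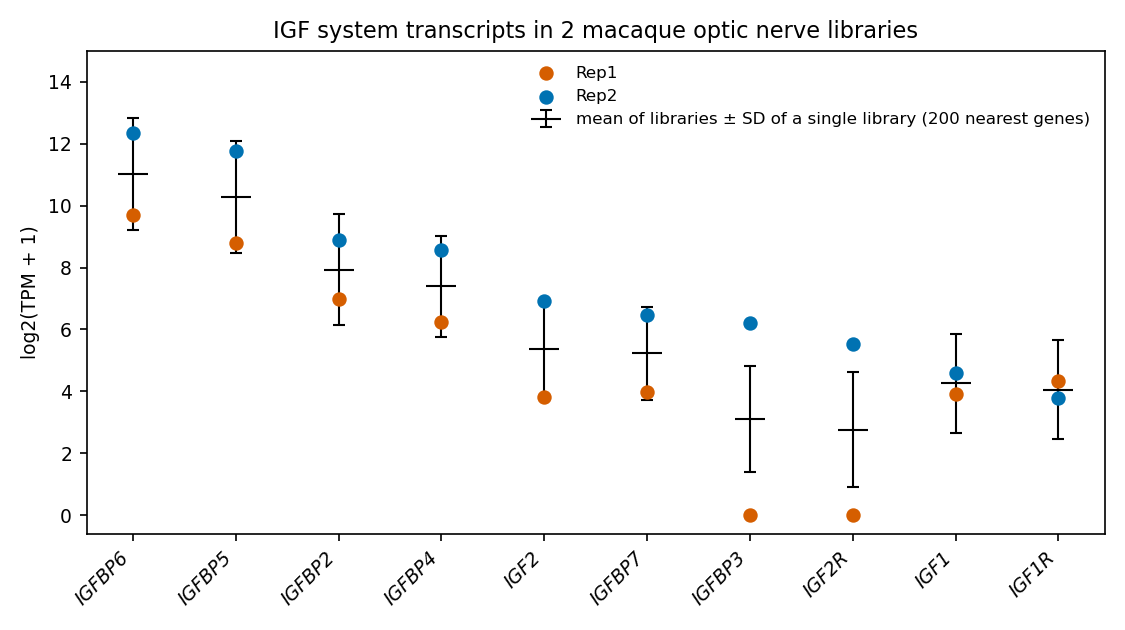
Levels of the 10 members, in the order of their mean TPM, on a log2(TPM + 1) axis. Coloured points are the libraries Rep1 and Rep2, black dashes their mean on this scale, and bars the SD of a single library from the 200 genes nearest in level. *IGFBP6* and *IGFBP5* lead in both libraries, *IGFBP3* and *IGF2R* are at 0 in Rep1, and *IGF1* and *IGF1R* lie close together in both.

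The binding proteins share an amino-terminal domain held together by disulphide bonds. The coding stretch of 17 codons around its cysteine cluster is shown for all 6 genes, because it sets the most abundant member apart from the others. Each RefSeq stretch lies in coding sequence of exon 1, and cysteine codons are in capitals. The positions in Mmul_10 are chr12:104022425-104022475 for *IGFBP2* (plus strand), chr3:69448551-69448601 for *IGFBP3* (plus), chr16:51596565-51596615 for *IGFBP4* (plus), chr12:104079197-104079247 for *IGFBP5* (minus), chr11:52661604-52661654 for *IGFBP6* (plus) and chr5:76517477-76517527 for *IGFBP7* (plus).
IGFBP2: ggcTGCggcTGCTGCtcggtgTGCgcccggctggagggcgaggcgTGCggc
IGFBP3: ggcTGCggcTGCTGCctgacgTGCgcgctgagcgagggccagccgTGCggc
IGFBP4: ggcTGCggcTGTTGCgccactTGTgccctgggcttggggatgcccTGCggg
IGFBP5: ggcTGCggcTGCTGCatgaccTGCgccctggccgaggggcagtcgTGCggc
IGFBP6: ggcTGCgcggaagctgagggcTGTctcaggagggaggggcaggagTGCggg
IGFBP7: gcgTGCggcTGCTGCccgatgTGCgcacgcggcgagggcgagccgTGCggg
Of these, 5 genes held 5 cysteine codons in the stretch and *IGFBP6* held 3. *IGFBP6* was identical to the other genes at 24 to 29 of 51 bases, while the other 5 genes were identical to each other at 32 to 44 of 51 bases.

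*IGFBP6*, whose product prefers IGF2 over IGF1, lies on chromosome 11 from 52661169 to 52665996. It was at 834 (Rep1) and 5143 TPM (Rep2), with a mean of 2989 ± 3047 TPM (SD, n = 2), and ranked 25 of all listed genes on the mean, 214 in Rep1 and 14 in Rep2. *IGFBP5*, whose product also binds extracellular matrix, lies on chromosome 12 from 104059457 to 104080228. It was at 447 (Rep1) and 3455 TPM (Rep2), with a mean of 1951 ± 2127 TPM (SD, n = 2), and ranked 48 on the mean, 387 in Rep1 and 18 in Rep2. Both were thus among the most abundant transcripts of the nerve in Rep2. By their Rep1 level they were in the upper 3 percent of the genes detected in either library (percentiles 98.6 and 97.4). Their values rested on at least 397 and 325 reads in Rep1 and at least 42083 and 43158 reads in Rep2. *IGFBP6* lay above *IGFBP5* in both libraries, by 0.898 (Rep1) and 0.574 (Rep2) on the log2 scale. The difference of their means, 0.74, was 0.407 times an SD that does not pair the genes within a library.

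*IGFBP2*, on chromosome 12 from 104022062 to 104051440, encodes a binding protein that also binds integrins. It stood at 125 (Rep1) and 473 TPM (Rep2), or 299 ± 246 TPM (SD, n = 2), at percentile 96.6. *IGFBP4*, on chromosome 16 from 51596342 to 51610726, encodes the target of the protease PAPP-A. It stood at 74.1 (Rep1) and 376 TPM (Rep2), or 225 ± 214 TPM (SD, n = 2), at percentile 95.4. These genes formed a middle tier. *IGFBP2* lay above *IGFBP4* by 0.746 (Rep1) and 0.329 (Rep2) on the log2 scale, and by 0.313 SDs on their means. *IGFBP5* lay 1.30 SDs above *IGFBP2*, and *IGFBP4* lay 1.28 SDs above *IGF2*, the next member in the order.

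*IGFBP7*, on chromosome 5 from 76516464 to 76603185, encodes a distant relative that binds IGFs weakly and is found around blood vessels. Its level was 14.7 (Rep1) and 88.1 TPM (Rep2), or 51.4 ± 51.9 TPM (SD, n = 2), and its Rep1 value rested on at least 1 read. In the annotation, 40.1% of the 50-base windows of its transcript occur on the opposite strand of the transcript of *POLR2B*, an overlapping gene at 135 (Rep1) and 75.0 TPM (Rep2). Reads of these genes cannot be told apart there without strand, so the level of *IGFBP7* is uncertain to that extent. *IGFBP3*, on chromosome 3 from 69448222 to 69457073, encodes the main carrier of IGFs in blood. It was listed at 0 in Rep1 but reached 72.4 TPM in Rep2, although only 1.0% of the 200 genes nearest in Rep2 level were at 0 there.

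The binding protein transcripts kept their order in both libraries. Their summed level was 1494 (Rep1) and 9608 TPM (Rep2), 6.43-fold higher in Rep2. *IGFBP6* made up 55.8% of that sum in Rep1 and 53.5% in Rep2, or 54.7 ± 1.59% (SD, n = 2). *IGFBP5* made up 29.9% and 36.0%, so these genes together accounted for 85.7% and 89.5%. *IGFBP2* took 8.36% and 4.92%, *IGFBP4* 4.96% and 3.91%, and *IGFBP7* 0.984% and 0.917%. *IGFBP3* took 0.754% in Rep2. All 15 pairs of binding proteins stood in the same order in both libraries, namely *IGFBP6*, *IGFBP5*, *IGFBP2*, *IGFBP4*, *IGFBP7* and *IGFBP3*, and 13 pairs were more than 1 SD apart. The sum of binding protein TPM was 54.3 times that of the ligands in Rep1 and 67.4 times in Rep2.

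**Figure D2:**
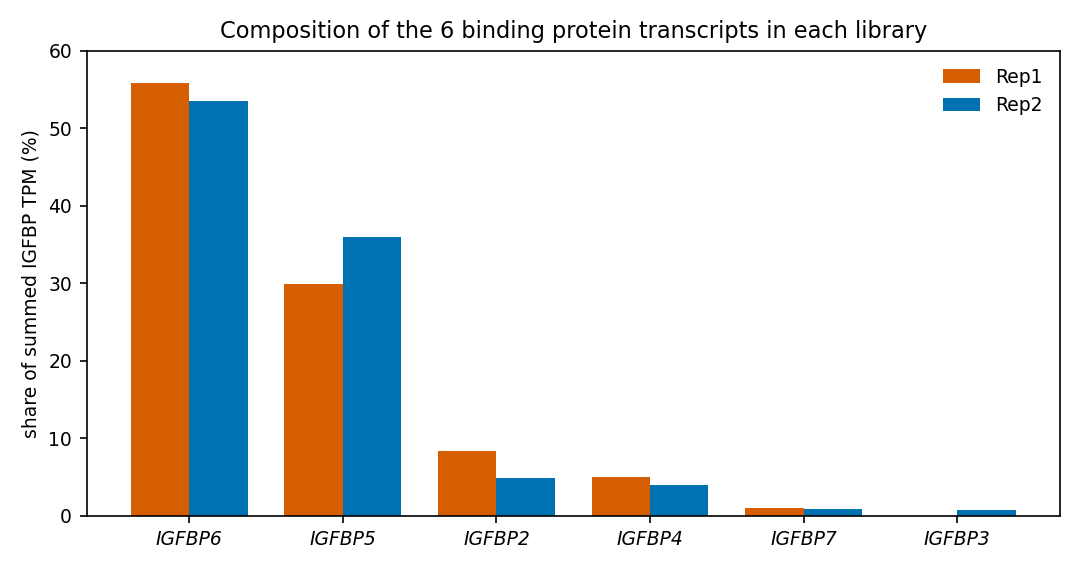
Share of each binding protein gene in the summed TPM of the 6 genes, in percent, with a bar for each library starting at 0. *IGFBP6* stands at 55.8% and 53.5%, *IGFBP2* is higher in Rep1 at 8.36% against 4.92%, and *IGFBP3* has no bar in Rep1.

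Over all 45 pairs of members, 35 were in the order of the mean TPM in both libraries, 9 were in another order in 1 library and 1 was tied at 0 in Rep1. On the mean, the order was *IGFBP6*, *IGFBP5*, *IGFBP2*, *IGFBP4*, *IGF2*, *IGFBP7*, *IGFBP3*, *IGF2R*, *IGF1* and *IGF1R*. Of the 9 pairs of neighbours, 3 were more than 1 SD apart, from *IGFBP5* to *IGFBP2*, from *IGFBP4* to *IGF2* and from *IGFBP7* to *IGFBP3*. The last of these rests on the value of 0 in Rep1, since in Rep2 the genes differed by 0.28 on the log2 scale. The other neighbours were less than 1 SD apart, by an SD that does not pair the genes within a library. Of them, *IGFBP6* and *IGFBP5*, and *IGFBP2* and *IGFBP4*, kept their order in both libraries. The rest were tied or in another order in 1 library. *IGF2R* stood above *IGF1* on the mean TPM but below it by 1.49 on the mean of log2(TPM + 1).

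Differences between the libraries were taken as Rep1 minus Rep2 on the log2(TPM + 1) scale. The median over the 10 members was -2.56, beside -1.07 over all 14693 genes detected in either library. Of the members, 8 were at least 2-fold lower in Rep1, beside 51.3% of all genes, and none was at least 2-fold higher, beside 14.8% of all genes. The 8 were *IGF2*, *IGF2R* and the 6 binding proteins. Listed at 0 in Rep1 and above 0 in Rep2 were 2 members, beside 30.2% of all genes. Set against the SD of a difference between libraries at their level, *IGFBP3* (2.56 SDs), *IGF2R* (2.10 SDs) and *IGF2* (1.44 SDs) departed most, and *IGF1R* (0.228 SDs) and *IGF1* (0.285 SDs) least.

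Scaling by the median of ratios, which uses the genes above 0 in both libraries, took out a shift of Rep1 relative to Rep2 that came to -1.19 on the log2 scale. After it, 7 members were at least 2-fold lower in Rep1, beside 33.8% of all genes, and *IGF1R* was at least 2-fold higher, beside 23.7%. *IGF1* turned from -0.65 to 0.48 under this scaling, so no direction is given for it. The binding proteins kept their sign, from -5.61 in *IGFBP3* to -0.73 in *IGFBP2*. The median over the members was then -1.39 and that over all genes -0.38.

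**Figure D3:**
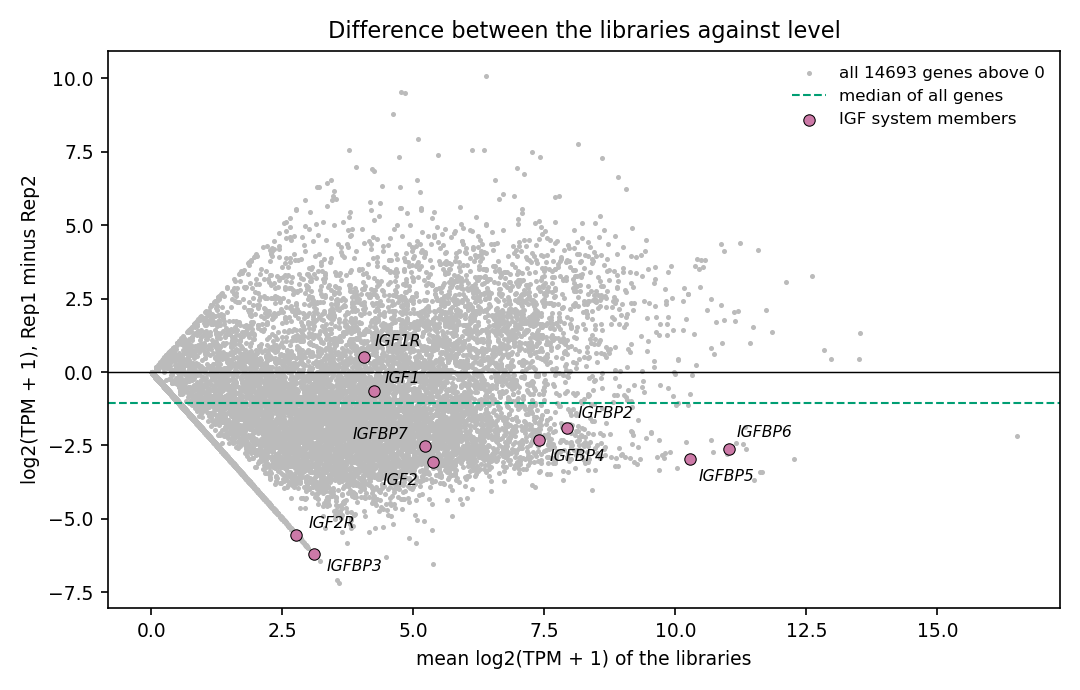
Difference between the libraries, Rep1 minus Rep2 on log2(TPM + 1), against the mean of the libraries on the same scale, for 14693 genes in grey and the members in pink. The dashed line is the median of all genes at -1.07. The members other than *IGF1* and *IGF1R* lie below it, and *IGF2R* and *IGFBP3* sit on the lower edge formed by genes at 0 in Rep1.

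Markers of other cell types in or around the nerve are given beside these differences. All 7 meningeal fibroblast markers were at least 2-fold lower in Rep1, beside 51.3% of all genes, with a summed TPM of 1772 in Rep1 and 16022 in Rep2, 9.04-fold higher in Rep2, and none at 0. The corresponding ratio of sums was 4.62 for the oligodendrocyte markers and 6.67 for the astrocyte markers, beside 6.43 for the binding proteins. The fibroblast sum was mostly *DCN*, at 995 (Rep1) and 10504.5 TPM (Rep2), 10.6-fold higher in Rep2. The other fibroblast markers were 4.10-fold (*COL3A1*) to 38.6-fold (*PDGFRA*) higher there. The oligodendrocyte sum was mostly *MBP*, at 43721.5 (Rep1) and 199595 TPM (Rep2), 4.57-fold higher in Rep2. The other oligodendrocyte markers were 4.71-fold (*CLDN11*) to 7.84-fold (*MAG*) higher there. Single astrocyte markers were 2.23-fold (*SLC1A3*) to 122-fold (*AQP4*) higher in Rep2. Of 7 endothelial markers, 4 were at least 2-fold lower in Rep1, near the share of all genes, and *TEK* was at least 2-fold higher, with sums of 58.4 (Rep1) and 126 TPM (Rep2) and *VWF* at 0 in Rep1. After the median of ratios, 2 endothelial markers were at least 2-fold lower and 2 at least 2-fold higher, beside 33.8% and 23.7% of all genes. Their median difference was then -0.02. Of 5 pericyte markers, 3 were at least 2-fold lower in Rep1, beside 51.3% of all genes. Their sums were 69.6 (Rep1) and 233 TPM (Rep2), with *ABCC9* and *NOTCH3* at 0 in Rep1. *KCNJ8* went the other way, at 17.7 (Rep1) and 0.953 TPM (Rep2). After the median of ratios, 2 pericyte markers were at least 2-fold lower and 1 at least 2-fold higher, beside the same shares of all genes. Microglia and macrophage markers summed to 240 (Rep1) and 580 TPM (Rep2). Of these 8 markers, 6 were at least 2-fold lower in Rep1, beside 51.3% of all genes. The others were *CSF1R*, at 61.3 (Rep1) and 62.2 TPM (Rep2), and *AIF1*, at 113 and 64.5 TPM. After the median of ratios, 5 were at least 2-fold lower and 2 at least 2-fold higher, beside 33.8% and 23.7% of all genes. The pigment epithelium markers summed to 104 (Rep1) and 80.2 TPM (Rep2), with 2 of the 4 lower and 2 higher in Rep1. The Rep1 sum was mostly *RLBP1*, at 76.7 (Rep1) and 6.12 TPM (Rep2). *TTR* went the other way, at 18.6 and 59.0 TPM, as did *RPE65*, at 6.05 and 13.1 TPM. The part of these cells in the levels of the members was not tested.

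Several members are neighbours in the genome. *IGFBP2* and *IGFBP5* lie on opposite strands of chromosome 12 with their ends facing each other, 8016 bases apart, and were the third and the second most abundant members. *IGFBP3* lies 20900 bases from *IGFBP1*, which encodes a binding protein made mainly by the liver. *IGFBP1* was listed at 0 in Rep1 but reached 0.395 TPM in Rep2, while *IGFBP3* reached 72.4 TPM in Rep2. The longest annotated transcripts of the members ran from 1188 bases in *IGFBP6* to 8878 bases in *IGF2R*, and their GC content from 36.7% in *IGF1* to 66.8% in *IGFBP2*. In the 45 pairs of members, transcripts shared no exact run longer than 22 bases. Apart from *IGFBP7*, windows of 50 bases shared with other annotated genes were found in *IGF1* alone, at 0.148% of its windows.

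Other genes of the IGF pathway were described from a list of 32, of which 28 were detected in either library. *INS*, *INSRR*, *IRS4* and *IGF2BP1* were listed at 0 in both libraries. Of the 28 genes, 10 were at least 2-fold lower in Rep1, beside 51.3% of all genes, and 8 at least 2-fold higher, beside 14.8%. Their median difference was -0.56. After scaling by the median of ratios, 5 were at least 2-fold lower, beside 33.8% of all genes, and 10 at least 2-fold higher, beside 23.7%, with a median of -0.11.

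Among the other carriers, *IGFALS*, the subunit that joins IGFBP3 in blood, was at 3.27 (Rep1) and 0.163 TPM (Rep2), and *IGFBPL1* at 7.23 and 5.31 TPM. Of the proteases, *HTRA1*, a serine protease that cleaves binding proteins, was the most abundant, at 24.3 (Rep1) and 159 TPM (Rep2). *PAPPA*, which cleaves IGFBP4, was at 1.89 (Rep1) and 4.48 TPM (Rep2), and *PAPPA2* was listed at 0 in Rep1 and at 0.198 TPM in Rep2. The stanniocalcins, which inhibit the pappalysins, were low, with *STC1* at 6.31 and 0.592 TPM and *STC2* at 5.09 and 0.988 TPM. *PAPPA* thus stood far below its target *IGFBP4* in both libraries.

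The adaptors that couple the receptors to the cell differed in opposite ways. *SHC1* was at 35.4 (Rep1) and 46.0 TPM (Rep2), a log2 difference of -0.37 that became 0.79 under the median of ratios, so no direction is given for it. *IRS2* was at 33.7 (Rep1) and 1.58 TPM (Rep2), whereas *IRS1* was listed at 0 in Rep1 and at 0.968 TPM in Rep2. *GRB10*, which encodes an inhibitor of insulin and IGF1 receptors, was listed at 0 in Rep1 and at 27.8 TPM in Rep2, where 7.0% of the 200 nearest genes were at 0 in Rep1. All 12 genes of PI3K and AKT signalling were above 0 in both libraries, and 6 were at least 2-fold lower and 3 at least 2-fold higher in Rep1, beside 51.3% and 14.8% of all genes. The balance turned under the median of ratios, with 1 at least 2-fold lower and 4 at least 2-fold higher, beside 33.8% and 23.7% of all genes. *AKT1* was at 142 (Rep1) and 81.3 TPM (Rep2), while *AKT2* was at 4.44 and 14.3 TPM. *PIK3R1*, encoding a regulatory subunit of the kinase, was at 23.7 (Rep1) and 104 TPM (Rep2). *FOXO1*, a transcription factor held out of the nucleus by AKT, was at 23.0 (Rep1) and 43.7 TPM (Rep2). Its log2 difference of -0.89 became 0.26 under the median of ratios, so no direction is given for it.

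**Figure D4:**
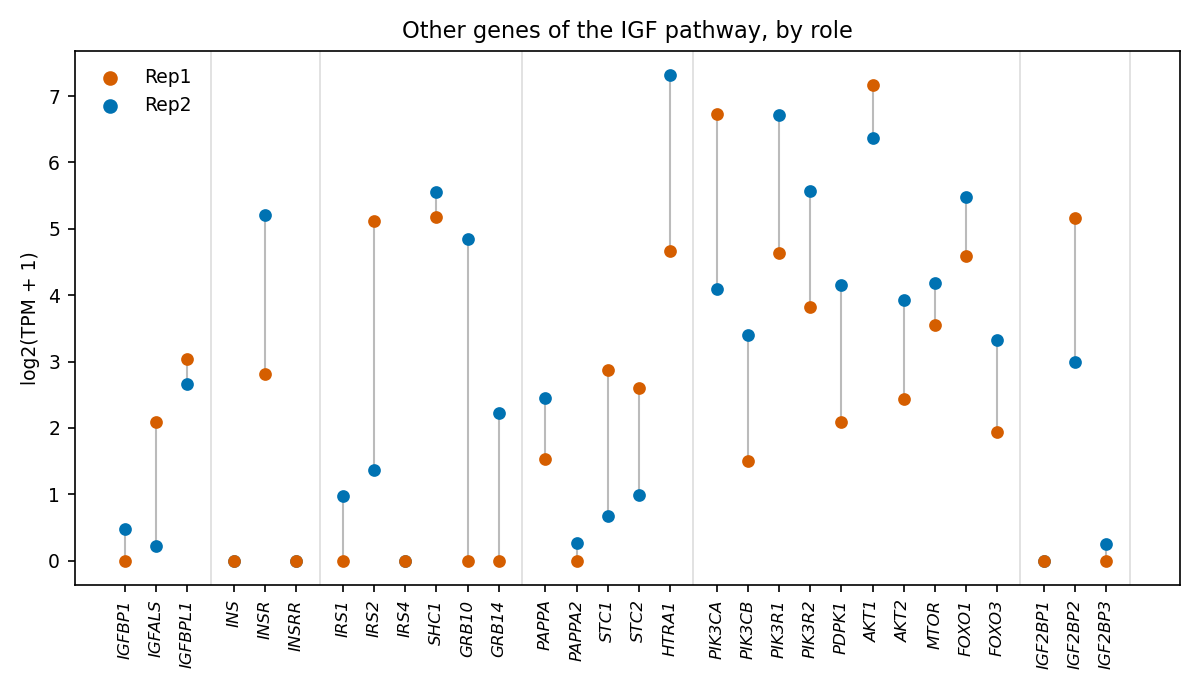
Levels of 30 of the 32 other genes of the IGF pathway on a log2(TPM + 1) axis, with a point for each library joined by a line and vertical lines between the groups (other carriers, insulin and its receptors, adaptors, proteases and their inhibitors, PI3K and AKT signalling, IGF2 mRNA binding proteins). Points of Rep1 lie above those of Rep2 in 8 genes and below them in 18, and 4 genes are at 0 in both.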

How the data were processed

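Total RNA from 2 untreated optic nerves was amplified with a SMARTer Ultra Low Input kit, which does not mark strand, and sequenced. According to the methods and the labels, the authors used Trim Galore 0.6.6 for trimming, STAR 2.7.1a for alignment to Mmul_10 and featureCounts 1.5.3 for counting, and then normalized to TPM. The deposited table holds TPM of 16684 genes in columns named Rep1 and Rep2, which no label pairs with a sample title. The gene lengths, the use of strand and the treatment of multiply aligned reads are not given in the sources used here.

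The calculations used numpy 2.4.6, pandas 2.3.3 and Biopython 1.88 under Python 3.11, and figures matplotlib 3.10.9. The rule took the 10 symbols, relatives in the pathway and cell markers were grouped by role, all listed genes are reported by count with examples from each role, and the members and lists were chosen with earlier results of these data known. Differences are on log2(TPM + 1), which understates low genes. For a member, the spread of a single library (SD) was estimated about 0 from the differences of the 200 genes closest to it in mean level. The SD of a difference between members was the root of the mean of their squared SDs, which does not pair the members within a library. Of the listed pathway genes, 2 enter the counts but are not reported here by name. Scripts were tested on simulated data. TPM keeps no read totals, so no interval or detection limit per gene is given. The smallest whole read numbers came from the ratio of a gene's values, within a tolerance of 1e-12. Coordinates and sequences are RefSeq's for Mmul_10, in which all 16684 symbols were found. Alternatives were another pseudocount, median of ratios scaling, dropping the top 10 genes, a geometric mean, other gene sets, 500 nearest genes, the SD about the mean difference, and single libraries.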

Additional observations from a re-analysis of the deposited data

How the results depend on the processing

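No paired analysis was possible because both libraries belong to the same condition. Among values recomputed with both libraries, 110 kept within the limit set for them and 7 moved beyond it. The limit was a spread over the libraries or genes, or a fixed fold for counts. The spread over 2 libraries was wide, and shares cannot change under the median of ratios. The 110 therefore say little on stability. Under the median of ratios the median log2 difference of the members was -1.39, that of the other pathway genes -0.11, and 5 pathway genes were at least 2-fold lower in Rep1. With a pseudocount of 0.1 the pathway median was -1.38. The ratio of *IGF2* to *IGF1*, 3.07 as the mean of the ratios within the libraries, was 5.21 without Rep1 and 0.928 without Rep2, which turns the order of the ligands. The remaining 3 values that moved were percentiles of *IGF1*. The number of pairs of members more than 1 SD apart, 32 of 45, ran from 28 to 36 over all alternatives, and the summed TPM of the members from 1541 to 9809. Each of 2 libraries always lies the same number of SDs from their mean, so single libraries say nothing on the stability of a mean. *IGF2R* and *IGFBP3* are at 0 in Rep1, the shallower library, so their levels rest on Rep2 alone. The reason for these values of 0 was not tested.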

Other observations

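Other pathway genes outside the members stood higher in Rep1. *PIK3CA*, encoding a catalytic subunit of PI3K, was at 106 (Rep1) and 16.0 TPM (Rep2). *IGF2BP2*, which encodes a protein that binds *IGF2* mRNA, was at 34.9 (Rep1) and 7.0 TPM (Rep2), while *IGF2BP3* was listed at 0 in Rep1 and at 0.193 TPM in Rep2. These differences describe the libraries, which carry the same condition, and no cause was tested.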
